A study of Mus musculus with 24 samples.

Results

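The regions described here are the places in the genome that carried H3K27ac in wild-type (WT) forelimb buds and H3K27me3 in Shh-/- forelimb buds, called doubly marked regions below. They were chosen by the positions of the deposited peaks, as every WT H3K27ac peak that shared at least 1 bp with a Shh-/- H3K27me3 peak. This gave 360 of 49679 WT H3K27ac peaks, or 0.725% of the list, and because the WT H3K27ac and Shh-/- H3K27me3 lists defined the group, their overlap is a description and not a result. Of the 360 regions, 166 had no overlapping Shh-/- H3K27ac peak, so that the acetylation peak was listed in WT only, and 194 also had a Shh-/- H3K27ac peak. In the whole WT list 51.5% of peaks overlapped a Shh-/- H3K27ac peak, compared with 53.9% of the doubly marked regions (95% Wilson interval 48.7% to 59.0%). These shares count overlap between separately called lists, and a peak listed in WT only is not thereby shown to be lost. The paper, which counted reads in merged peaks, reported nearly all H3K27ac peaks in both genotypes, with a small subset of WT peaks significantly reduced or lost.

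The forelimb buds came from E10.5 mouse embryos of 32 to 35 somites on a Swiss Webster background, with about 400000 cells in each chromatin immunoprecipitation and the limb buds of several embryos pooled. The Shh-/- embryos, also called mutant below, were homozygous for the Shh tm1amc null allele, and by the study's methods the WT controls were wild-type and heterozygous littermates together. Each condition and mark had 2 replicates, which the authors entered together into peak calling, so there is a single list per condition, no spread between replicates can be given and no difference was tested. The Wilson intervals below cover the counting error of a share only, and neighbouring regions are not independent of each other. Other lists gave H3K4me2 in both genotypes, and H3K27ac in NIH3T3 cells, a mouse embryonic fibroblast line that responds to Hedgehog signaling, after 48 hours with LIF and either 400 nM of the Smoothened agonist purmorphamine or DMSO. WT H3K27me3 was not analysed here, so it cannot be stated whether methylation at such regions was gained, lost or unaltered in Shh-/- limb buds. A whole limb bud mixes posterior and anterior mesenchyme with ectoderm, vessels and other cells, and marks carried by the same cells and marks carried by different cells cannot be told apart.

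As background, H3K27ac is deposited at active enhancers and promoters, whereas H3K27me3 is deposited on the same lysine by Polycomb repressive complex 2 and is typical of silent developmental genes with CpG-rich promoters. A single histone tail cannot carry both modifications on that lysine. H3K4me2 marks promoters and enhancers whether they are active or poised. In the limb bud, Sonic hedgehog is secreted from the posterior margin, where it stabilises GLI activators and relieves GLI repression of genes such as Gli1, Ptch1, Hand2, Grem1 and the 5′ Hoxd genes, and without Shh the GLI3 repressor acts throughout the bud.

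To show what such a region looks like, the sequence shared by the WT H3K27ac and the Shh-/- H3K27me3 peak is given for 6 regions at genes of the Hedgehog pathway and its limb targets, all of them without a Shh-/- H3K27ac peak. Each is the central 300 bases of the shared stretch on the plus strand of GRCm38 (mm10), in lower case with every CpG in capitals, because the CpG content of the regions is compared with that of other WT H3K27ac peaks below. The Gli1 window (chr10:127340650-127340949) lay in a peak over exons of the gene, the Ptch1 window (chr13:63572625-63572924) lay in an intron, and the windows of Hand2 (chr8:57326625-57326924), Hoxd12 (chr2:74674225-74674524), Hoxd11 (chr2:74679000-74679299) and Osr2 (chr15:35295375-35295674) lay between genes.
Gli1: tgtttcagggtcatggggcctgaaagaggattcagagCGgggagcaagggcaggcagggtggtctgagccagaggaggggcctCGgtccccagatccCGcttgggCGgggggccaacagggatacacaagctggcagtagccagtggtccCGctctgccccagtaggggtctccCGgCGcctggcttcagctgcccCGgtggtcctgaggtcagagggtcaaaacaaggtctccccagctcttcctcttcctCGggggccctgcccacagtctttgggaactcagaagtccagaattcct
Ptch1: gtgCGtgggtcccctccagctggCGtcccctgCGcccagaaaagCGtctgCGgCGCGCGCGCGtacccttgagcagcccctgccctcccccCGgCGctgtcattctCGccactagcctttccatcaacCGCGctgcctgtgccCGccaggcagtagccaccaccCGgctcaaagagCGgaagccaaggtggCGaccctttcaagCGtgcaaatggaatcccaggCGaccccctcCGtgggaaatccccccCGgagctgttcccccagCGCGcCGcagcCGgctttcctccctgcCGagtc
Hand2: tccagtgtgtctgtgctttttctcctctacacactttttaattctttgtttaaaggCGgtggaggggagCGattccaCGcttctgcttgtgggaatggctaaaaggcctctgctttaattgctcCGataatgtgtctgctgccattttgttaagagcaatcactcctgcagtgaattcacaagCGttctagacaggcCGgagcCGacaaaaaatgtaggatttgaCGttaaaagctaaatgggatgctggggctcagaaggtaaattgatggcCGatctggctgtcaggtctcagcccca
Hoxd12: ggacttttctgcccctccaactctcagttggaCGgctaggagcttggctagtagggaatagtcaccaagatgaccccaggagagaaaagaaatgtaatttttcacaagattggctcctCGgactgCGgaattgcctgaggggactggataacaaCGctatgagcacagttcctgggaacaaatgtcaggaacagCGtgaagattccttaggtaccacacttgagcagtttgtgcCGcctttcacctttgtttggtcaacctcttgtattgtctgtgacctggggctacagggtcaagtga
Hoxd11: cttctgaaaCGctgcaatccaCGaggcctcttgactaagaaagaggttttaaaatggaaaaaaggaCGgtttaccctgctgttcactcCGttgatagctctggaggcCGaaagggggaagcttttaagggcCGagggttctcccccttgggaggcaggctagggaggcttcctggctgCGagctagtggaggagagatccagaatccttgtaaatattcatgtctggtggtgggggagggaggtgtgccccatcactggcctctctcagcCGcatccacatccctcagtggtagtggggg
Osr2: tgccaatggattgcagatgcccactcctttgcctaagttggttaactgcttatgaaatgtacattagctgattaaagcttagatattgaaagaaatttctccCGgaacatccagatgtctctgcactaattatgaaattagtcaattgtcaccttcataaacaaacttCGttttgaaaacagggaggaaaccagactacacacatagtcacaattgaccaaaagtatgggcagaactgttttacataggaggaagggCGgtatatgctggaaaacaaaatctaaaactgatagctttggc
The 6 windows ranged widely in base composition. The Ptch1 window held 28 CpGs at 69.0% GC and a CpG observed/expected ratio of 0.82, whereas the Osr2 window held 3 CpGs at 38.3% GC and a ratio of 0.27. The Gli1 and Hand2 windows held 9 CpGs each, the Hoxd11 window 8 and the Hoxd12 window 6. None of the 6 windows held the GLI consensus GACCACCCA on either strand. Over whole peaks this 9-letter sequence, searched on both strands, was in 0 of the 166 regions without Shh-/- H3K27ac, which allows a share of up to 1.81% by a limit of 3 counts and 2.26% by the Wilson interval, in 2 of the 194 regions with it, at Pdgfra and Hoxa10, and in 0.401% of all WT H3K27ac peaks. Only these letters were searched, and peaks differ in width.

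The overlap rule has a sharp edge, since the deposited peaks are built from 50 bp steps. The smallest overlap was 50 bp, in 30 regions, and another 34 WT H3K27ac peaks lay directly beside an H3K27me3 peak without sharing a base. A total of 316 peaks outside the rule lay within 500 bp of one. Most overlaps were larger: 224 of the 360 regions (62.2%) were covered over at least 50% of their length and 145 (40.3%) over all of it. The H3K27me3 list is itself permissive, with 47.2% of its 20830 peaks at a deposited FDR under 0.05. Of the 360 regions, 278 (77.2%) overlapped at least 1 H3K27me3 peak with an FDR under 0.05. The 440 H3K27me3 peaks that overlapped them made up 2.11% of the list, had an FDR under 0.05 in 65.2% of cases, and were 300 bp wide in the median against 150 bp for the whole list.

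The 2 kinds of doubly marked region had different shapes, which is a description, since these lists chose and divided them. Regions without Shh-/- H3K27ac were short acetylated stretches lying in wide methylated ones: the WT H3K27ac peak had a median width of 200 bp, while the widest H3K27me3 peak overlapping it had a median width of 1050 bp, and 108 of 166 (65.1%, interval 57.5% to 71.9%) lay entirely inside an H3K27me3 peak. Regions with Shh-/- H3K27ac were the reverse, with wide acetylated stretches and small patches of H3K27me3. Their WT H3K27ac peaks had a median width of 800 bp, their H3K27me3 peaks of 450 bp, and 37 of 194 (19.1%, interval 14.2% to 25.2%) lay entirely inside an H3K27me3 peak, whereas 72 (37.1%) contained every H3K27me3 peak they overlapped. The regions without Shh-/- H3K27ac also ranked lower in the WT list, where rank 1 is the highest score, with a median rank of 30670 against 10305.5. A low rank is shared by WT-only peaks in general: the other 23907 WT H3K27ac peaks with no Shh-/- H3K27ac peak had a median rank of 33826 and a median width of 150 bp. Peak strength and width therefore moved together with the split, and their part in it was not tested. Of the 166 regions, 35 (21.1%) had a Shh-/- H3K27ac peak within 500 bp, against 37.3% of the other WT-only peaks, and the median distance was 2801 bp.

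**Figure D1:**
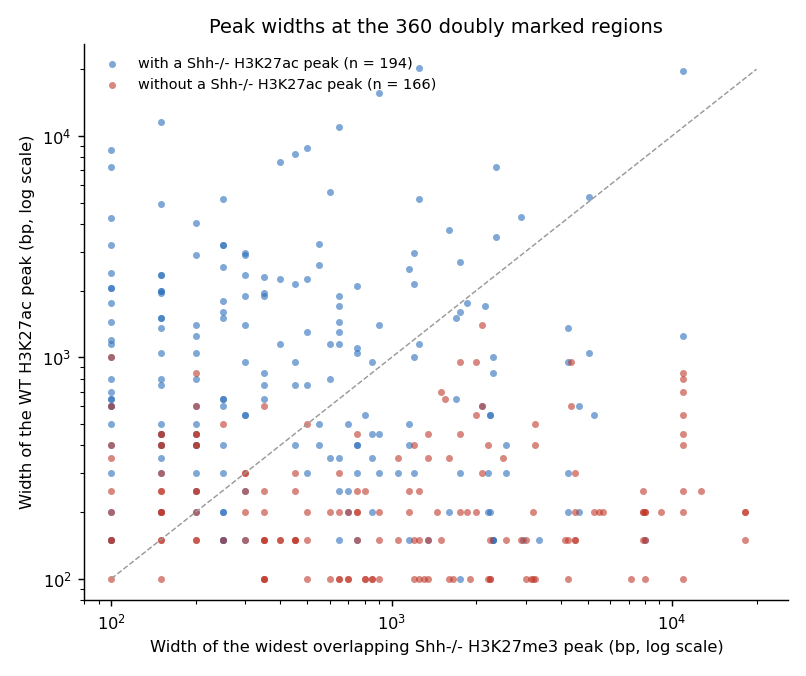
Each point is a doubly marked region, with the width of the widest overlapping Shh-/- H3K27me3 peak on the horizontal axis and the width of the WT H3K27ac peak on the vertical axis, both in bp on log scales, and a dashed line of equal widths. The 166 regions without a Shh-/- H3K27ac peak (red) gather below the line, with medians of 1050 and 200 bp, and most of the 194 regions with one (blue) lie above it, with medians of 450 and 800 bp.

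Gli1, which encodes a GLI activator and is the classical transcriptional readout of Hedgehog signaling, held 3 doubly marked regions, none with Shh-/- H3K27ac. The region at chr10:127339400-127339999 ranked 2187 in the WT H3K27ac list and was the best-ranked of all 166, with a largest log2 ratio of ChIP to input of 5.34. The second, chr10:127340100-127341499, had a WT log2 ratio of 4.96 and all of its 1400 bp were covered by H3K27me3, more than at any other region without Shh-/- H3K27ac. The third, next to the transcription start, was weaker, with a WT log2 ratio of 3.05. The widest H3K27me3 peak there reached all 3 regions and was 2100 bp wide with a log2 ratio of 4.67, and the nearest Shh-/- H3K27ac peak was 27701 bp from the first region. H3K4me2 was listed in both genotypes, with 2000 bp covered in WT against 900 bp in the mutant buds over the 2550 bp that hold the 3 regions. In NIH3T3 cells the same 2550 bp held no H3K27ac peak with DMSO and 2450 bp of H3K27ac with purmorphamine.

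Ptch1, which encodes the Hedgehog receptor and is induced by the pathway, held 5 regions, of which 4 had no Shh-/- H3K27ac. The largest methylated one, chr13:63572300-63573249, had a WT H3K27ac log2 ratio of 4.20 and lay inside an H3K27me3 peak of 4350 bp with a log2 ratio of 4.42. The best-ranked one, chr13:63568100-63569049, had a WT log2 ratio of 4.66 and was covered over 550 of its 950 bp. It lay 51 bp from the only Shh-/- H3K27ac peak of the interval. That peak overlapped the remaining region, chr13:63566500-63567949, with a log2 ratio of 3.04 against 4.35 in WT, and the region carried a 100 bp patch of H3K27me3 with a log2 ratio of 2.08. Over the 7600 bp from the first region to the last, the acetylated length was 4150 bp for WT and 300 bp for Shh-/-, H3K4me2 covered 3400 and 2300 bp, and NIH3T3 H3K27ac covered 750 bp with DMSO and 2500 bp with purmorphamine. Gli1 and Ptch1 were the only members of the 20-gene Hedgehog pathway list that held doubly marked regions, with 7 of their 8 regions lacking Shh-/- H3K27ac. Hhip, which is also induced by the pathway, and Shh itself carried H3K27me3 in the promoter window (2000 bp before to 1000 bp after a start) but held no doubly marked region.

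Hand2 encodes a basic helix-loop-helix factor that acts upstream of Shh in the posterior limb bud and is in turn maintained by it. It held 15 regions over 37000 bp, more than any other single gene except Bcor, and 10 of them had no Shh-/- H3K27ac. H3K27me3 was spread over this interval, covering 23300 bp in peaks of at most 2900 bp, and the H3K27ac peaks covered 13350 bp in WT against 2950 bp in the mutant buds. The regions at the transcription start and gene body overlapped Shh-/- H3K27ac peaks, but none of these peaks covered the start itself. The nearest one ran from 0.32 to 0.67 kb relative to the start. A Shh-/- H3K27me3 peak from -1.73 to 0.12 kb did cover it. The region over the transcription start, chr8:57320000-57321749, had a WT log2 ratio of 5.04 and a Shh-/- log2 ratio of 3.66, and the gene-body region chr8:57321800-57326099 had ratios of 5.23 and 4.76 and 3850 bp of H3K27me3. Downstream of the gene both kinds alternated. Peaks were listed in WT only at chr8:57326300-57327249, with a WT log2 ratio of 3.60 and all 950 bp methylated, at chr8:57332350-57332799, with a ratio of 4.28, and at chr8:57340800-57341399, with a ratio of 4.11, whereas the region chr8:57333200-57334799 between them had ratios of 4.55 in WT against 2.92 in the mutant buds. H3K4me2 was present at 9 of the 15 regions in WT and at 6 in Shh-/- limb buds. No region of Hand2 had H3K27ac in NIH3T3 cells.

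At the Hoxd cluster, whose 5′ genes pattern the digits, 20 regions lay within 45050 bp, and from Hoxd13 to Hoxd8 they separated largely by position. All 4 regions of Hoxd13, all 4 of Hoxd12 and 5 of 6 of Hoxd11 had no Shh-/- H3K27ac, whereas the single region of Hoxd10 and all 3 of Hoxd8 had it. Hoxd3 held 1 region of each kind there and 2 more beyond these 45050 bp, within chr2:74735150-74746999. Both of the latter lacked Shh-/- H3K27ac, so 3 of 4 Hoxd3 regions did, and the separation did not extend to this gene. The Hoxd13 and Hoxd12 regions lay in H3K27me3 peaks of 7900 and 10900 bp, with log2 ratios of 4.35 and 5.01. Among them, chr2:74673950-74674799 before Hoxd12 had a WT log2 ratio of 4.46 and chr2:74678750-74679549 before Hoxd11 a ratio of 4.81, and both were methylated throughout. The Hoxd13 start, chr2:74668250-74668499, was weaker in WT at 3.01, and carried H3K4me2 in both genotypes, with log2 ratios of 3.49 in WT against 4.47 in the mutant buds. The Hoxd11 start, chr2:74682000-74683249, had H3K27ac ratios of 4.66 in WT against 3.82 in the mutant buds and lay inside the same 10900 bp H3K27me3 peak. The 19650 bp region at Hoxd10, chr2:74683400-74703049, ranked 48 in WT against 74 in the mutant buds, and the 8800 bp of it that were methylated were the most at any of the 360 regions. WT H3K4me2 without Shh-/- H3K4me2 was listed at 4 regions of Hoxd11, 3 of Hoxd12 and 1 of Hoxd13, among the 30 regions without Shh-/- H3K27ac that had H3K4me2 in WT only.

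**Figure D2:**
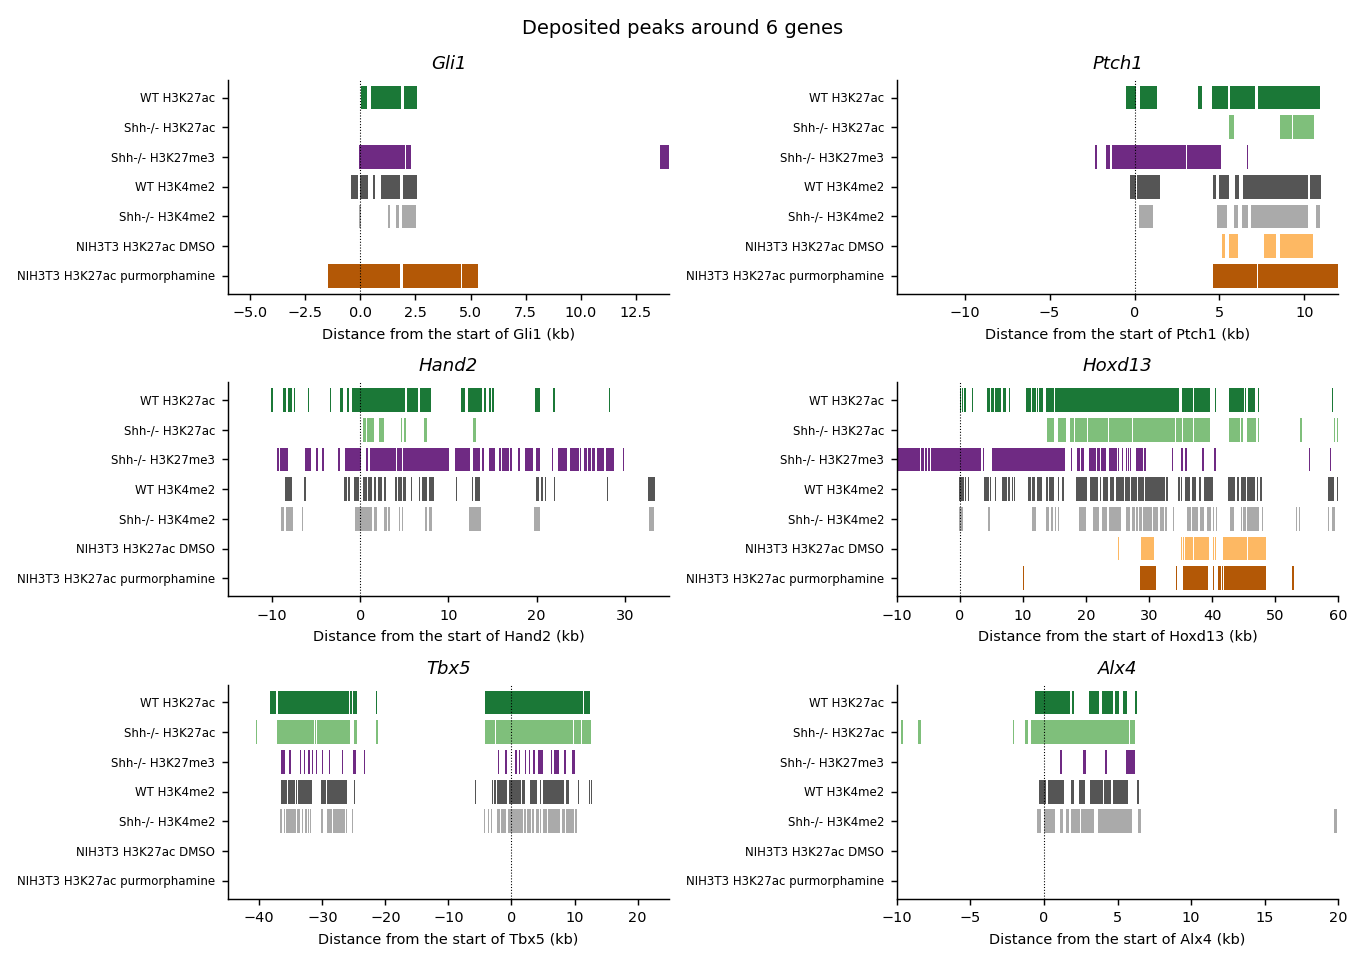
Deposited peaks of all 7 lists around 6 genes, with the distance from the annotated start of the gene in kb on the horizontal axis (positive in the direction of transcription) and a row of bars for each list. At Gli1, Hand2, the 5′ end of the Hoxd cluster and near the start of Ptch1, WT H3K27ac lies over broad Shh-/- H3K27me3 with little or no Shh-/- H3K27ac. Further into Ptch1, a WT H3K27ac peak from 7.25 to 10.90 kb overlaps Shh-/- H3K27ac and no H3K27me3. At Tbx5 and Alx4 the H3K27ac peaks of both genotypes coincide and H3K27me3 is in short patches.

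The other limb targets with doubly marked regions were more varied. Tbx2, a T-box repressor of the posterior and anterior margins, held 8 regions of 100 to 300 bp in H3K27me3 peaks of up to 8000 bp, 6 of them without Shh-/- H3K27ac, and its H3K4me2 covered 2450 bp in WT against 2600 bp in the mutant buds. Sall3, a zinc finger gene, held 6 regions, 5 without Shh-/- H3K27ac, with 2550 bp of H3K27ac in WT against 650 bp in the mutant buds. Grem1, which encodes the BMP antagonist of the SHH and FGF feedback loop, held 2 regions at its start with WT log2 ratios of 2.90 and 3.30, no Shh-/- H3K27ac within 33751 bp, and only 100 bp of H3K27me3 in each. H3K4me2 at Grem1 was listed in both genotypes, with log2 ratios of 4.28 in WT and 4.27 in Shh-/-. Osr2, a zinc finger gene, held 1 region before its start at a WT ratio of 3.96. Ccnd2 (cyclin D2) and Rgmb (a BMP co-receptor) held 1 region each, without Shh-/- H3K27ac, and Ebf3, a transcription factor gene, held 1 without and 1 with it. Sall1 and Tbx3 held 1 region of each kind, and Hoxa11 held 2 without Shh-/- H3K27ac beside a 7200 bp region that had it.

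Over all 35 genes of this list of Hedgehog limb targets, 17 held 66 doubly marked regions, of which 51 (77.3%, interval 65.8% to 85.7%) had no Shh-/- H3K27ac, against 115 of the 294 regions at other genes (39.1%, interval 33.7% to 44.8%). The list was drawn up with results of these limb buds known, so its direction is not independent evidence. For comparison, all WT H3K27ac peaks assigned to the 35 genes were WT only in 60.9% of cases, against 48.3% of WT peaks at other genes. The regions come from few loci, with 15 of the 66 at Hand2 alone.

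The 194 regions with Shh-/- H3K27ac included many at genes of the limb mesenchyme and the anterior limb. Among the 10 best-ranked of them in the WT list were regions at Mecom, a zinc finger gene, Pdgfra, a growth factor receptor of mesenchyme, Tbx5, the forelimb T-box gene, Shox2 and Prrx1, homeobox genes of the limb mesenchyme, Lhx9, Zic2, Hoxa10 and Hoxd10. At Mecom the region ranked 27 in WT against 30 in the mutant buds and held a single 150 bp patch of H3K27me3 in 11550 bp. At Prrx1 the 8600 bp region ranked 223 and 53, with 200 bp methylated. At Tbx5 the 15650 bp region over the start, chr5:119828400-119844049, ranked 61 in WT against 17 in the mutant buds, and was methylated over 4350 bp in patches of at most 900 bp. The 4 regions of Alx4, an anterior homeobox gene that restricts Shh expression, overlapped Shh-/- peaks whose largest log2 ratios were higher than their own in WT. At the start it was 5.86 against 5.31. A single Shh-/- peak joined 3 of the 4 regions, so these share the same Shh-/- value, which need not lie within each. H3K27me3 covered 50 to 150 bp of each region. The 3 regions of Twist1 had log2 ratios of 4.90 to 5.84 in WT and 5.51 to 5.86 in Shh-/- limb buds. The list of limb mesenchyme genes had 8 of 36 regions without Shh-/- H3K27ac (22.2%, interval 11.7% to 38.1%) and the anterior limb list 4 of 31 (12.9%, interval 5.13% to 28.9%). These lists too were drawn up with earlier results known. Regions outside each list lacked it in 48.8% and 49.2% of cases, and all WT H3K27ac peaks at the genes of each list were WT only in 42.5% and 35.5%.

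Across the 194 regions the Shh-/- H3K27ac peak was narrower than the WT peak at 87, wider at 91 and as wide at 16. As a percentile of its list, the rank was worse in Shh-/- than in WT at 83 of 194 (42.8%), against 50.8% of the other 25412 WT peaks with a Shh-/- peak. The medians were 20.7 in WT against 14.6 in the mutant buds. For a region that overlapped several Shh-/- peaks the best rank and the widest peak were used, which can favour wide regions. The 194 regions were wider in WT than the other shared peaks, with medians of 800 against 500 bp. At 184 of the 194 regions (94.8%) a Shh-/- H3K27ac peak itself overlapped H3K27me3, so acetylation and methylation were listed in overlapping peaks of the same genotype.

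The 360 regions fell into 153 loci when those within 20 kb were joined, and they were concentrated in few of them: 85 loci held a single region, while the 20 loci with 5 or more held 152 regions. All regions of a locus lacked Shh-/- H3K27ac at 60 loci, all had it at 60, and 33 held both kinds. After Hoxd and Hand2, the loci with most regions were that of Zic2 and Zic5 with the neighbouring Gm10837 and Gm5089 (10 regions, 6 without Shh-/- H3K27ac, of which 3 were at Gm10837), Lhx2 (10, 3 without), Bcor (9, 3 without), and then Tbx2 and the Hoxa cluster (8 each, with 6 and 2 without). At the Hoxa cluster the acetylated length was 40300 bp in WT against 37200 bp in the mutant buds, and at Tbx18 and Irx5 it was longer in Shh-/- than in WT. These lengths depend on how much was called in each list, and the WT H3K27ac list covers 23249950 bp in all against 19692300 bp for the Shh-/- list. Each span, here and at the genes above, also began and ended with a WT H3K27ac peak. Shh-/- peaks reaching beyond it were cut off, so the comparison favours WT by construction. Within these spans, 14 of the 20 loci with 5 or more regions had less Shh-/- than WT H3K27ac, as did 124 of all 153 loci.

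**Figure D3:**
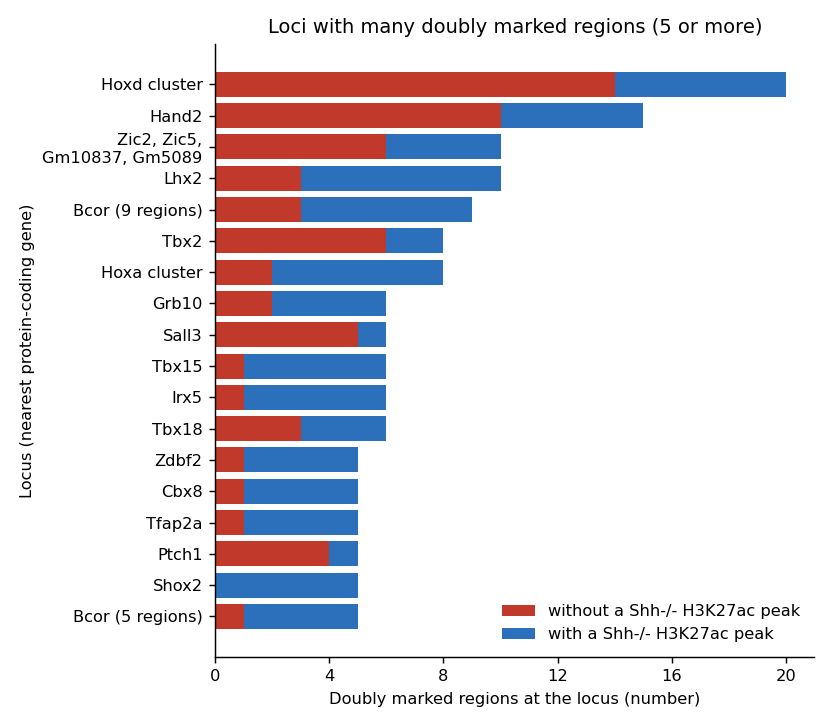
Number of doubly marked regions at 18 of the 20 loci with 5 or more, named by the nearest protein-coding gene, divided into regions without (red) and with (blue) a Shh-/- H3K27ac peak. Regions without Shh-/- H3K27ac make up 14 of 20 at the Hoxd cluster, 10 of 15 at Hand2, 6 of 8 at Tbx2, 5 of 6 at Sall3 and 4 of 5 at Ptch1, and none of those at Shox2.

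Many regions had a developmental regulator as the nearest protein-coding gene, that is, a member of families of transcription factors and signaling molecules listed by name. This held for 214 of 360 regions (59.4%, interval 54.3% to 64.4%), against 11.3% of all WT H3K27ac peaks. When the nearest start of any gene type was taken, the share of the regions was 39.2%, and that of all WT peaks was not counted. By protein-coding starts it held for both kinds, with 57.8% of the regions without and 60.8% of those with Shh-/- H3K27ac, and the intervals of the 2 shares overlapped. The share was lower by locus, 66 of 153 (43.1%), or by gene, 75 of 162 (46.3%, against 4.15% of the 11731 genes of all WT peaks). Among narrow peaks the contrast was similar: 55.2% of the 145 regions under 500 bp without Shh-/- H3K27ac were at regulators, against 11.7% of other WT-only peaks under 500 bp. The compared peaks all lack H3K27me3, which by itself was frequent at regulators. It lay in the promoter window of 438 of 740 regulators, against 2922 of 21827 protein-coding genes. The excess is therefore not shown to be particular to double marking.

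The Hox genes were the largest family, with 39 regions at 17 of 39 genes, and 31.5% of the 124 WT H3K27ac peaks assigned to a Hox gene were doubly marked. They were Hoxa3, Hoxa5, Hoxa9, Hoxa10 and Hoxa11, Hoxb3, Hoxb6 and Hoxb7, Hoxc4, Hoxc5 and Hoxc11, and Hoxd3, Hoxd8 and Hoxd10, Hoxd11, Hoxd12 and Hoxd13. Shares of this order were also found for the Zic genes (12 of 39 WT peaks, 30.8%), the LIM homeobox genes Lhx2, Lhx9 and Lmx1b (16 of 63, 25.4%), the T-box genes Tbx2, Tbx3, Tbx5, Tbx15 and Tbx18 (26 of 146, 17.8%) and Irx3 and Irx5 (10 of 57, 17.5%). None of the 295 WT peaks at Sox genes, 374 at Notch and ephrin genes or 231 at FGF genes was doubly marked, and 1 of 303 at Wnt and R-spondin genes was, at Rspo3. With 0.725% of all WT peaks doubly marked, such low counts are near the background. Regions without Shh-/- H3K27ac made up 7 of 9 at Sall and Osr genes and 12 of 26 at T-box genes, or 77.8% and 46.2%, near the WT-only share of all WT H3K27ac peaks at these families (68.8% and 50.0%). They made up 20 of 39 at Hox genes (51.3%, against 36.3% of all WT peaks there). For LIM homeobox genes the count was 3 of 16 (18.8%, against 36.5%), for Zic genes 3 of 12 (against 46.2%) and for Irx genes 2 of 10 (20.0%, against 38.6%).

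Lists of genes of other cell types showed where H3K27me3 lay without WT acetylation. The limb tissue was recognisable from its promoters, since 22 of 23 limb mesenchyme genes had WT H3K27ac in the promoter window, against 0 of 23 neural, 0 of 11 blood and 6 of 21 endothelial genes. Shh-/- H3K27me3 lay in the promoter window of all 23 neural genes, of which none had WT H3K27ac there, and of 21 of 24 ectoderm and apical ectodermal ridge genes, of which 2 had it. Of the 12 limb mesenchyme genes with promoter H3K27me3, 11 had WT H3K27ac in the same window (91.7%), as did 18 of 26 Hedgehog limb targets (69.2%), 7 of 10 anterior limb genes (70.0%) and 20 of 32 Hox genes (62.5%), against 476 of 2922 of all protein-coding genes with promoter H3K27me3 (16.3%). For Shh-/- H3K27ac the corresponding counts were 10 of 12 limb mesenchyme genes, 12 of 26 Hedgehog limb targets, 7 of 10 anterior limb genes, 19 of 32 Hox genes and 446 of 2922 genes in all. Both marks in a window need not overlap. Over whole lists, with or without H3K27me3, WT H3K27ac lay in the window of 22 of 23 limb mesenchyme genes and 26 of 35 Hedgehog limb targets. It did so for 11 of 14 anterior limb genes, 27 of 39 Hox genes and 9556 of 21827 protein-coding genes. The high shares in these lists are therefore not shown to be particular to promoters with H3K27me3.

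Regions at most genes of other cell types were few and small, with exceptions at Tfap2a and Lmx1b. Tal1 and Hhex, endothelial transcription factors, held 1 region each of 200 bp, inside H3K27me3 peaks of 9150 and 5500 bp and without Shh-/- H3K27ac. Lbx1, a gene of migrating muscle precursors, held 3 regions of 150 to 200 bp without Shh-/- H3K27ac inside an H3K27me3 peak of 18200 bp, the widest at any doubly marked region, and Pax3, also expressed in muscle precursors, held 1. Pou4f1, a neural gene, held 2 regions of 100 and 150 bp. Tfap2a, of ectoderm and neural crest, held 7, together 5150 bp wide, of which 3 lacked Shh-/- H3K27ac. Lmx1b, which specifies dorsal mesenchyme, held 3, together 10600 bp wide, with H3K27ac in both genotypes, and Hoxc11 held 1 in WT only. No blood gene of the list held one. The part of changes in cell makeup in the split was not tested, and in whole limb buds fewer cells of a type and less acetylation per cell cannot be told apart.

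**Figure D4:**
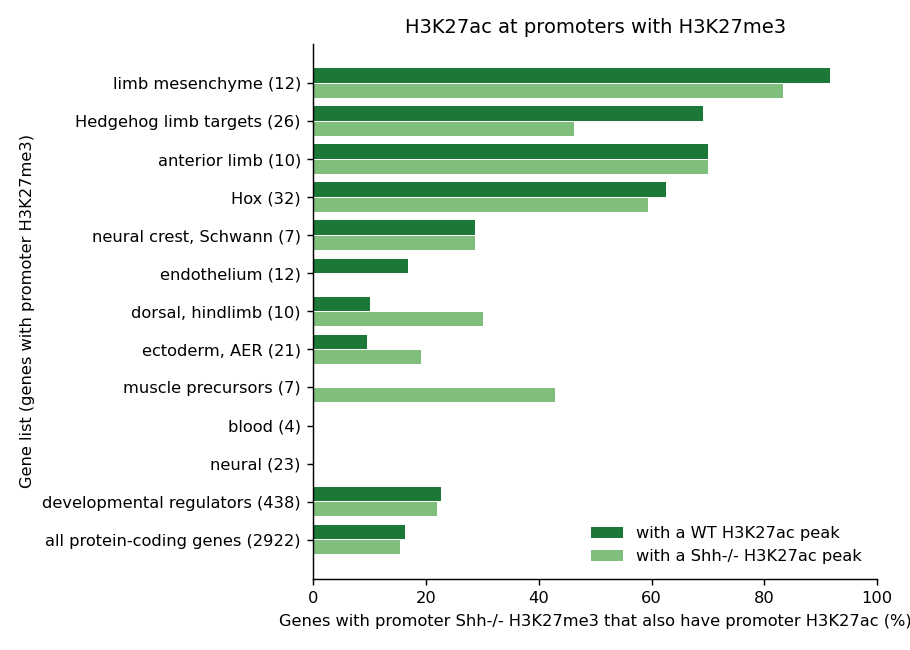
For each gene list, the share of genes with Shh-/- H3K27me3 in the promoter window that also have a WT (dark) or a Shh-/- (light) H3K27ac peak there, in percent, with the number of genes with promoter H3K27me3 in parentheses. Limb mesenchyme (91.7% in WT), anterior limb (70.0%), Hedgehog limb target (69.2%) and Hox genes (62.5%) stand well above all protein-coding genes (16.3%), and neural, blood and muscle precursor genes have none in WT, while the Hedgehog limb targets are at 46.2% for Shh-/- H3K27ac. WT promoter H3K27ac was also frequent over the whole of those first lists, with or without H3K27me3, as given in the text.

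H3K4me2, which played no part in choosing the regions, was common at them. A WT H3K4me2 peak overlapped 276 of 360 regions (76.7%, interval 72.0% to 80.7%), against 32.1% of all WT H3K27ac peaks, and a Shh-/- H3K4me2 peak overlapped 245 (68.1%, interval 63.1% to 72.7%), against 30.7%. Peaks in both genotypes were found at 235 regions (65.3%), against 27.6% of all WT peaks. Even where acetylation was listed in WT only, 108 of 166 regions (65.1%) had WT H3K4me2 and 83 (50.0%) had Shh-/- H3K4me2, against 16.4% and 15.4% of the other WT-only peaks. Among regions with WT H3K4me2, those without Shh-/- H3K27ac had it in Shh-/- limb buds at 78 of 108 (72.2%, interval 63.1% to 79.8%), and those with Shh-/- H3K27ac at 157 of 168 (93.5%, interval 88.7% to 96.3%). In the other WT-only peaks H3K4me2 was kept at 81.4% (interval 80.1% to 82.6%). These intervals treat neighbouring regions as separate, although several regions with H3K4me2 in WT only lay together at Hoxd11, Hoxd12 and Hoxd13. They are therefore no measure of a difference between genotypes. In the paper's own comparison nearly all H3K4me2 peaks were unaltered between the genotypes. The 2 genotypes have no replicate spread, and a peak missing from a list can also be one that fell under the threshold.

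**Figure D5:**
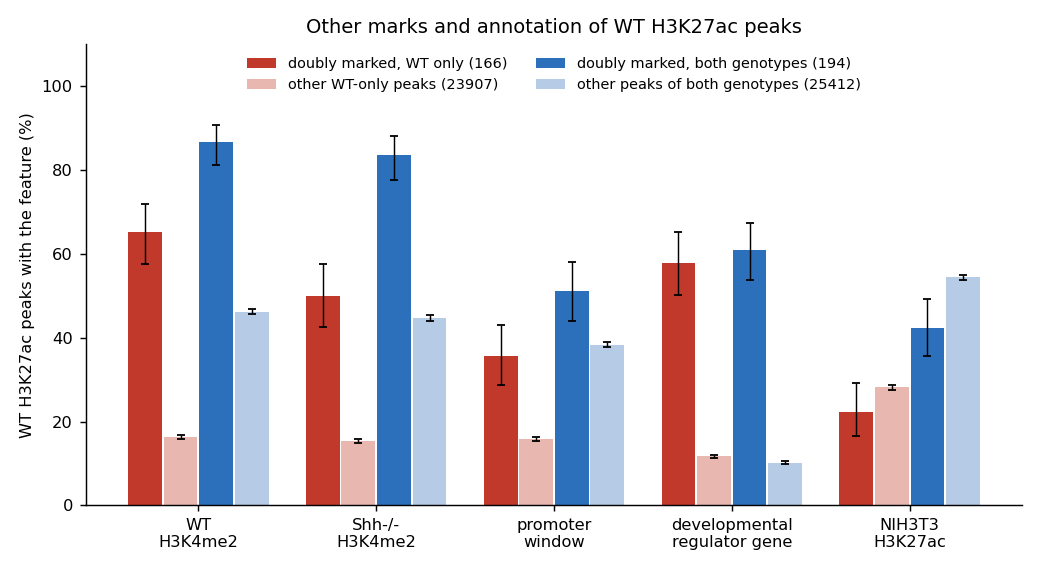
Share of WT H3K27ac peaks with each feature in percent, with 95% Wilson intervals as error bars, for doubly marked regions without (red) and with (blue) Shh-/- H3K27ac and for the other WT H3K27ac peaks of the same kind (pale). The doubly marked bars stand above the pale ones for H3K4me2, promoters and developmental regulators, with 57.8% and 60.8% against 11.7% and 10.2% for regulators, and lower for NIH3T3 H3K27ac, where the red interval (16.6% to 29.2%) takes in the pale value of 28.2%.

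The regions lay near genes. In 158 of 360 (43.9%, interval 38.9% to 49.1%) the peak overlapped a promoter window, against 27.6% of all WT peaks, and the median distance to the nearest protein-coding start was 1845.5 bp against 29076 bp. A transcription start lay inside 8 of the 166 regions without Shh-/- H3K27ac (4.82%, interval 2.46% to 9.22%) and 41 of the 194 with it (21.1%, interval 16.0% to 27.4%), against 10.6% of all WT peaks. Among the other peaks of the same kind the shares were 1.73% for WT-only and 18.9% for shared peaks. Those 8 starts were of Grem1, Hoxd13, Tal1, Dlk1, Cxcl14, Fat4, Hoxb3 and AC124108.1, and were named after their values were seen. Of the regions without Shh-/- H3K27ac, 75 lay between genes, 57 in introns and 26 over exons, and of those with it 58, 59 and 36. The median CpG observed/expected ratio in the 500 bp around the peak centre was 0.536 without and 0.610 with Shh-/- H3K27ac, against 0.225 and 0.336 in the other WT-only and shared peaks. GC content was 55.3% and 56.2%, against 45.2% and 49.2%.

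In NIH3T3 cells, 119 of 360 regions (33.1%, interval 28.4% to 38.1%) had an H3K27ac peak in at least 1 condition, below the 41.6% of all WT peaks, although the NIH3T3 lists were larger and made with another H3K27ac antibody. The share was 22.3% for regions without and 42.3% for regions with Shh-/- H3K27ac. Purmorphamine alone gave a peak at 10 regions and DMSO alone at 6. Of the 10 purmorphamine-only regions 9 had no Shh-/- H3K27ac in the limb, as did 5 of the 6 DMSO-only regions. In the other WT H3K27ac peaks, 947 purmorphamine-only peaks were WT only and 762 had Shh-/- H3K27ac. The purmorphamine-only regions included the 3 of Gli1. The others were 2 at Cyp1b1 and 1 each at Smoc1, Zeb2, Gse1 and AC124108.1, and the 10th, at Epop, had Shh-/- H3K27ac. These genes were named after their values were seen. In all WT peaks the purmorphamine-only share was 3.46% and the DMSO-only share 3.30%, against 2.78% and 1.67% of the doubly marked regions.

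Of 20 listed Polycomb subunit and demethylase genes, 2 were nearest genes of doubly marked regions, against 162 of all 21827 protein-coding genes. Cbx8 held 5 regions up to 12681 bp from its start, 4 of them with Shh-/- H3K27ac. Bmi1 held 1 region of 250 bp, without it. These 6 were among 97 WT H3K27ac peaks at the 20 genes, against 360 of 49679 in the whole list. Bcor, an X-linked gene whose product joins a variant Polycomb complex, held 16 of the 25 regions on the X chromosome, 12 of the 16 with Shh-/- H3K27ac. Those 25 were 1.70% of the 1469 WT H3K27ac peaks on X, the highest share of any chromosome, and 4 lacked Shh-/- H3K27ac. Some regions lay at imprinted genes, which are expressed from a single parental allele, and these were picked out after the gene names were seen. No share over all imprinted genes was counted beside them. Grb10 held 6 regions inside or across a 4250 bp H3K27me3 peak, 4 with Shh-/- H3K27ac, the strongest at log2 ratios of 5.07 in WT against 5.04 in the mutant buds. Igf2 held 3, all with Shh-/- H3K27ac, of which chr7:142659700-142664999 was methylated over 4750 of 5300 bp and ranked 703 in WT against 990 in the mutant buds. Zdbf2 held 5, 4 with Shh-/- H3K27ac, and Dlk1 held 1 at its start, without.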

How the data were processed

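ChIP-seq peak lists of 7 conditions were used. Per the labels and the study's methods, the authors aligned reads to mm10 (Bowtie2 2.2.5 in the submitters' processing notes) and called peaks against input with CisGenome 2.1.0, entering both replicates together. Library depth is not given by peak lists. The labels and the methods name different abcam antibodies for H3K27me3.

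For each peak the authors deposited a rank, position and length, a score (their largest ChIP against input statistic), the largest log2 ratio of ChIP to input, an FDR (a q-value) and −log10 of the smallest Poisson p-value. Here they served to describe or filter peaks. Coordinates are given as deposited, both ends included, and all peaks lay within GRCm38 chromosome lengths.

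Overlap of at least 1 bp was computed in Python 3.11.15 and tested on simulated data against bedtools 2.31.1. A region's gene was the protein-coding gene with the nearest transcription start in GENCODE vM21 (basic), and a promoter window ran from 2000 bp before to 1000 bp after a start. Sequence came from GRCm38. For every region overlapping several peaks of a list, the best rank, widest peak and largest log2 ratio were taken. Named genes were those of the 10 best-ranked and the 10 most methylated regions of each kind, of the 10 loci with most regions, and of the Hedgehog, Hox and cell type lists. The members and the gene lists were chosen with earlier results of these data known. Without replicate lists no test was made, and shares carry 95% Wilson intervals. Alternatives varied the overlap, the H3K27me3 and H3K27ac peaks admitted, the units and the annotation. Some genes are not reported here.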

Additional observations from a re-analysis of the deposited data

How the results depend on the processing

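No paired analysis was possible because replicates were pooled in every list, and no replicate could be left out. Of 48 values recomputed under other choices, 31 stayed within the interval of the reported value (or within 1.5 times the count). Requiring H3K27me3 over at least 50% of the WT peak left 224 regions, with Shh-/- H3K27ac at 37.1%, H3K4me2 in both genotypes at 56.7% and NIH3T3 H3K27ac at 25.9%. The better-ranked 50% of WT peaks left 221 regions, with 71.0%, 73.3% and 40.7% in the same order. Merging WT peaks within 1 kb left 220, with 62.7%, 73.6% and 40.0%, promoters at 53.6% and developmental regulators at 48.6%. Counting a gap of up to 500 bp as overlap gave Shh-/- H3K27ac at 63.6%, a promoter of 500 bp on either side gave 31.4%, and the nearest start of any gene type gave regulators at 39.2%. With the best-ranked region of each locus alone, added after seeing the data, H3K4me2 in both genotypes was at 74.5%, promoters at 51.0%, NIH3T3 H3K27ac at 39.2%, regulators at 43.1% and the median CpG ratio at 0.621. The cause of these shifts was not tested. Restricting H3K27me3 to FDR under 0.05 or its better-ranked 50%, or leaving out Hox clusters, moved none of the shares or the median beyond its interval. Autosomes only, run for the number of regions and the Shh-/- H3K27ac share, gave 335 and 51.6%. Depth limits what is listed: a region called WT only may hold Shh-/- H3K27ac below the threshold.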
